A study of Homo sapiens with 27 samples.

Results

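The cleavage and polyadenylation specificity factor (CPSF) and its scaffold symplekin were followed through 7 genes, CPSF1, WDR33, CPSF4, FIP1L1, CPSF3, CPSF2 and SYMPK, chosen by symbol from the 20268 protein-coding symbols of the count table. No measured value entered the choice, although earlier results of these data were known when it was made. All 7 genes passed the filter on low counts in every comparison. RNA was sequenced from 3 prostate cancer cell lines: LNCaP, which is hormone-sensitive, LNCaP95, an LNCaP derivative that grows without androgen, and 22Rv1, which was derived from a relapsed xenograft tumor. Each line was infected with pGIPZ lentivirus encoding a non-silencing hairpin (CTRL sh) or a hairpin that targets CPSF1, either CPSF1 sh1 or CPSF1 sh2, which gave 9 groups of 3 libraries and 27 libraries in all. All groups, the control included, therefore carried an integrated vector and were selected with puromycin, at 2 μg/mL for LNCaP and 22Rv1 and 1 μg/mL for LNCaP95. Selected cells were expanded as populations, plated at 500000 per well and harvested after 72 h, with LNCaP95 kept in medium free of phenol red. There was a single control hairpin, and the sources used here do not say whether the 3 replicates of a group came from separate infections, so p-values measure the spread between these libraries.

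CPSF is the complex that finds the end of a pre-mRNA. One module, made of CPSF1, WDR33, CPSF4 and FIP1L1, recognizes the poly(A) signal, a hexamer most often written AATAAA in DNA, and brings poly(A) polymerase to it. The other holds the endonuclease CPSF3, which makes the cut, its inactive relative CPSF2, and symplekin (SYMPK), the scaffold that holds them together and that also serves in histone pre-mRNA processing.

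With CPSF1 lowered, the other 6 mRNAs did not all fall with it in any line. In 22Rv1 their sum per kilobase of exon was nevertheless lower, without overlap between libraries. WDR33 and FIP1L1 were higher than with CTRL sh in all 3 lines, SYMPK was higher in LNCaP and LNCaP95 and was not called in 22Rv1, CPSF3 was higher in LNCaP95, and CPSF4 was higher in LNCaP95 and lower in 22Rv1. The 22Rv1 calls of FIP1L1 and CPSF4 were narrow, and were lost in 6 and 4 of 9 fits that left out 1 library. CPSF2 passed the test in no line. The rises were modest, from 9.99% for CPSF4 to 46.8% for WDR33, both in LNCaP95. With CTRL sh alone the lines also differed, by more than the knockdown changes for some members and not for others: CPSF2 in LNCaP95 was at 0.360 of its LNCaP level and CPSF4 in 22Rv1 was 2.31-fold above LNCaP, while the log2 differences of WDR33 between lines were -0.07, -0.41 and -0.34.

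The poly(A) signals that the CPSF4 and WDR33 subunits contact were looked up in transcripts of the members, since these mRNAs are also processed by the complex. The last 50 bases of the MANE Select transcript (GENCODE 44 on GRCh37) held AATAAA for CPSF3 and CPSF2, and only the variant ATTAAA for CPSF4. Neither hexamer lay there for CPSF1, FIP1L1 and SYMPK. Among 18922 MANE Select transcripts, 65.2% held AATAAA, 14.4% only ATTAAA and 20.4% neither, searched on the transcript strand. The 30 bases around the signals of CPSF4, CPSF3 and CPSF2 are given 5′ to 3′, on the strand of the gene and with the hexamer in capitals.
CPSF4, chr7:99054966-99054995 on the plus strand: tttatgaaatggATTAAAgcttgtttttta
CPSF3, chr2:9613191-9613220 on the plus strand: tttgttacctaaAATAAAatgcattcgttt
CPSF2, chr14:92638457-92638486 on the plus strand: tagcaattgtgaAATAAAcagattctgaag
The CPSF2 signal lies beyond the gene model on which reads were counted, which ends at 92630755, while its MANE Select transcript runs to 92638489. These matches describe the annotated ends, and counts over exons do not show which end was used.

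Depth was 8515624 to 15904518 counts per library, and each member had 419 to 2547 raw counts in a library. The luminal markers KLK3, KLK2, HOXB13, FOXA1, KRT8, KRT18 and TMPRSS2 were above 2 CPM in all 27 libraries. KLK3 ranged from 318 to 1141 CPM over the LNCaP libraries (CTRL sh mean 1104) and from 953 to 2054 CPM in LNCaP95 (CTRL sh mean 2031). In 22Rv1 it ranged from 37.3 to 57.2 CPM (CTRL sh mean 40.6). TMPRSS2 shifted as KLK3 did in LNCaP (408.5 to 629.6 CPM, CTRL sh mean 614.4) and LNCaP95 (248.9 to 995.4 CPM, CTRL sh mean 960.6). Not every luminal marker did: KRT8 in LNCaP ranged from 401.1 to 614 CPM (CTRL sh mean 417.8). HOXB13 in LNCaP95 ranged from 345.2 to 450.1 CPM (CTRL sh mean 362.9). Of the 3 leukocyte markers, CD68 was higher with the knockdown, and their sum rose through it. The sum was 2.98 to 3.60 CPM with CTRL sh and 10.0 to 18.0 CPM with CPSF1 sh in LNCaP. It was 6.47 to 9.48 and 16.3 to 34.9 CPM in LNCaP95, and 0.952 to 1.65 and 1.84 to 7.21 CPM in 22Rv1. The other 2, PTPRC and CD3E, were at most at 0.292 CPM in any library. In LNCaP the fibroblast sum (COL1A1, COL3A1, DCN and LUM) was 26.1 to 31.2 CPM with CTRL sh and 17.8 to 20.9 CPM with CPSF1 sh, VWF 22.3 to 28.0 and 9.30 to 12.7 CPM, and the basal sum (KRT5, KRT14 and TP63) 1.26 to 2.105 and 3.78 to 6.29 CPM. In LNCaP95 these were 56.2 to 73.1 and 44.6 to 59.1 CPM, 0.686 to 1.26 and 1.71 to 4.36 CPM, and 1.67 to 3.04 and 2.46 to 6.04 CPM. In 22Rv1 the fibroblast sum was 23.8 to 25.7 and 17.9 to 21.1 CPM, and VWF and the basal sum were at most at 0.292 and 0.475 CPM. Each library came from a culture of a single cell line. The part of these shifts in the members' changes was not tested. In bulk counts, a change in the number of expressing cells and a change in RNA per cell cannot be told apart.

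CPSF1 (GRCh37, chr8:145618444-145634753, minus strand), the largest subunit and the hairpins' target, was lower in all CPSF1 sh libraries than in any CTRL sh library of the same line. Levels are normalized read counts in CPM, counts relative to library size, scaled by TMM within a line. In LNCaP the 3 CTRL sh libraries had 150.3, 149.7 and 151.7 CPM, the CPSF1 sh1 libraries 108.3, 94.4 and 100.3 CPM, and the CPSF1 sh2 libraries 98.2, 89.6 and 86.2 CPM. In LNCaP95 the CTRL sh libraries were at 127.5, 97.0 and 116.9 CPM, against 68.2, 57.1 and 58.7 CPM with CPSF1 sh1 and 61.7, 63.9 and 58.8 CPM with CPSF1 sh2. In 22Rv1 they were at 188.7, 182.0 and 182.5 CPM, against 110.7, 134.9 and 136.7 CPM with CPSF1 sh1 and 126.1, 141.4 and 132.9 CPM with CPSF1 sh2. The groups did not overlap in any line, and the target remained well above 0 everywhere. CPSF1 fell by 36.4% in LNCaP, fell by 46.1% in LNCaP95 and fell by 29.3% in 22Rv1. The log2 fold change with both hairpins against CTRL sh was -0.65 (SE 0.056, adjusted p = 1.68e-07) in LNCaP, -0.89 (SE 0.079, adjusted p = 1.31e-06) in LNCaP95 and -0.50 (SE 0.062, adjusted p = 9.66e-05) in 22Rv1.

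**Figure D1:**
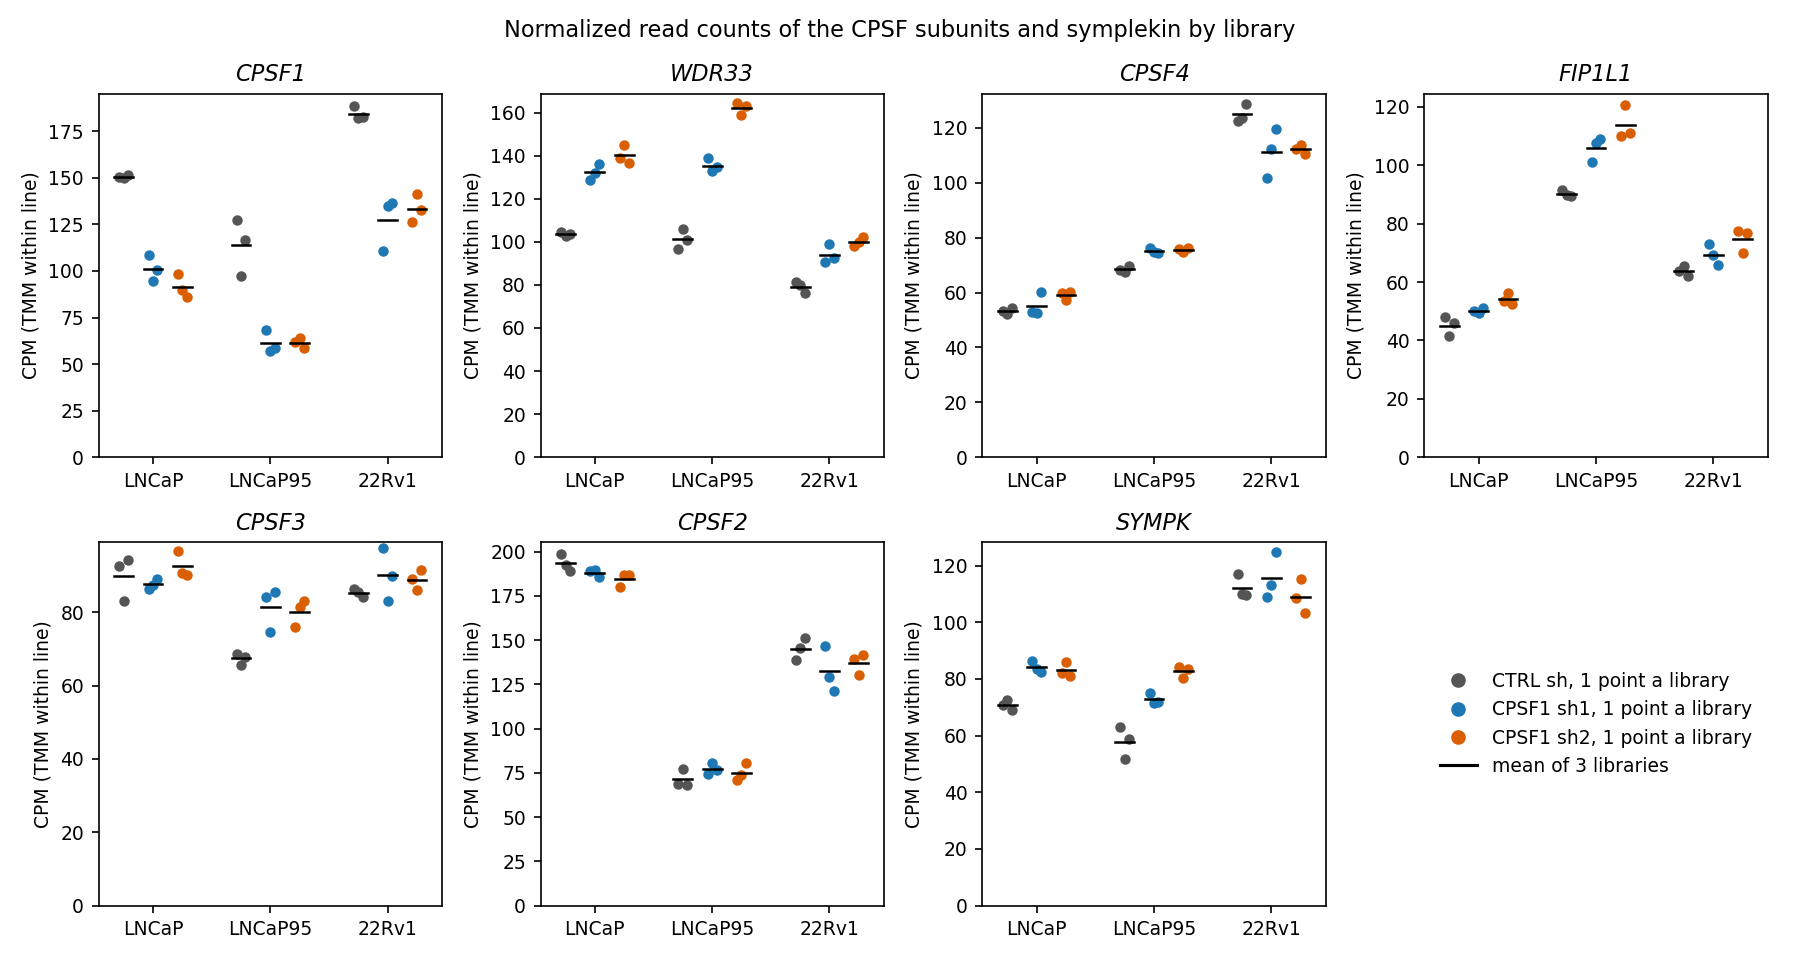
Normalized read counts (CPM, TMM within each line, y axis from 0) of the 7 genes by cell line, with 1 point for each library and a bar at the mean of 3. CPSF1 drops in each line, WDR33 and FIP1L1 lie higher with both hairpins in each line, and CPSF2 shows no separation, with LNCaP95 far below the other lines.

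WDR33 (chr2:128458596-128568761, minus strand), the WD40 subunit that contacts the poly(A) signal, showed the largest rise of the 7 in every line. In LNCaP its CTRL sh libraries had 104.4, 102.6 and 103.6 CPM, and the 6 CPSF1 sh libraries 128.5, 132.0, 136.2, 138.9, 145.1 and 136.5 CPM. In LNCaP95 the CTRL sh values were 96.9, 105.8 and 101.0 CPM, the CPSF1 sh1 values 138.7, 132.7 and 134.8 CPM, and the CPSF1 sh2 values 164.4, 159.1 and 163.0 CPM. In 22Rv1 the CTRL sh values were 81.1, 79.7 and 76.3 CPM, against 90.4, 99.1, 92.3, 98.3, 99.7 and 102.2 CPM with the hairpins. All CPSF1 sh libraries lay above all CTRL sh libraries in each line, and in LNCaP95 the CPSF1 sh2 libraries also lay above those of CPSF1 sh1. Its log2 fold change was 0.40 (SE 0.041, adjusted p = 1.23e-06) in LNCaP, 0.55 (SE 0.078, adjusted p = 4.97e-05) in LNCaP95 and 0.29 (SE 0.052, adjusted p = 0.00101) in 22Rv1.

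FIP1L1 (chr4:54243810-55161439, plus strand), which binds U-rich sequence and tethers poly(A) polymerase, rose in the same lines by less. In LNCaP the CTRL sh libraries had 47.9, 41.4 and 45.9 CPM and the CPSF1 sh libraries 49.4 to 56.3 CPM. In LNCaP95 the CTRL sh libraries had 91.4, 89.7 and 89.5 CPM and the CPSF1 sh libraries 101.0 to 120.6 CPM. In 22Rv1 the CTRL sh libraries had 63.7, 65.5 and 62.1 CPM and the CPSF1 sh libraries 65.9 to 77.6 CPM. The groups did not overlap in any line, although in LNCaP and 22Rv1 the nearest libraries were close. The log2 fold change was 0.22 (SE 0.059, adjusted p = 0.00503) in LNCaP, 0.28 (SE 0.053, adjusted p = 4.53e-04) in LNCaP95 and 0.18 (SE 0.059, adjusted p = 0.0383) in 22Rv1. The LNCaP call was lost without CTRL sh replicate 2 (adjusted p = 0.0502). The 22Rv1 call was lost without any 1 of CTRL sh replicates 1, 2 or 3, CPSF1 sh1 replicate 1 or CPSF1 sh2 replicates 1 or 3, with an adjusted p of up to 0.142. The annotated span of FIP1L1 runs over 917630 bases into PDGFRA on the same strand. PDGFRA itself had 0 or 1 counts per library in LNCaP and LNCaP95 and 2 to 10 in 22Rv1.

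CPSF4 (chr7:99036545-99054994, plus strand), the zinc finger subunit that binds the signal beside WDR33, moved in opposite directions in LNCaP95 and 22Rv1. In LNCaP95 the CTRL sh libraries had 68.3, 67.6 and 69.7 CPM, and all CPSF1 sh libraries were higher, at 74.2 to 76.4 CPM. In 22Rv1 the CTRL sh libraries had 122.6, 123.8 and 128.8 CPM, and all CPSF1 sh libraries were lower, at 101.9 to 119.8 CPM. In LNCaP the CTRL sh values of 53.3, 52.3 and 54.5 CPM overlapped the CPSF1 sh values, 52.4 to 60.4 CPM. The log2 fold change was 0.14 (SE 0.041, adjusted p = 0.0102) in LNCaP95, -0.16 (SE 0.050, adjusted p = 0.0294) in 22Rv1 and 0.10 in LNCaP, where it missed the threshold (95% interval -0.019 to 0.22, adjusted p = 0.131). The LNCaP95 call was lost with edgeR's filterByExpr (adjusted p = 0.0539) and without a filter (adjusted p = 0.130). The 22Rv1 call was lost without any 1 of the 3 CTRL sh replicates or without CPSF1 sh2 replicate 3, with an adjusted p of up to 0.137. CPSF4 lies opposite PTCD1, which rose in all 3 lines (0.57, 0.79 and 0.59 on the log2 scale in LNCaP, LNCaP95 and 22Rv1), and counting was by strand.

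CPSF3 (chr2:9563697-9613230, plus strand), the endonuclease, was higher with knockdown in LNCaP95. Its CTRL sh libraries there had 68.6, 65.7 and 67.8 CPM, and the CPSF1 sh libraries 74.5 to 85.4 CPM, without overlap. The log2 fold change was 0.26 (SE 0.055, adjusted p = 0.00107). The changes in LNCaP (0.01, 95% interval -0.098 to 0.11) and in 22Rv1 (0.07, 95% interval -0.045 to 0.18) missed the threshold. IAH1, a hydrolase gene that starts 556 bases downstream of CPSF3 on the same strand, fell in all 3 lines, with a log2 fold change of -0.86 in LNCaP, -0.71 in LNCaP95 and -0.41 in 22Rv1 (adjusted p = 2.48e-08, 1.75e-05 and 1.16e-04).

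CPSF2 (chr14:92588281-92630755, plus strand), which pairs with CPSF3 but lacks its catalytic activity, was called in no line. Its values with CTRL sh were 199.0, 192.6 and 189.2 CPM in LNCaP, 68.7, 77.4 and 68.3 CPM in LNCaP95, and 138.7, 145.4 and 151.1 CPM in 22Rv1. With CPSF1 sh they ran from 179.8 to 189.9 CPM in LNCaP, from 71.0 to 80.8 CPM in LNCaP95 and from 121.2 to 146.6 CPM in 22Rv1, and the groups overlapped in each line. The log2 fold change was -0.06 (95% interval -0.13 to 0.015) in LNCaP, 0.09 (95% interval -0.033 to 0.22) in LNCaP95 and -0.11 (95% interval -0.23 to 0.020) in 22Rv1, with adjusted p-values of 0.158, 0.175 and 0.199. In LNCaP95 it passed the test as a rise without CTRL sh replicate 2 (adjusted p = 0.0455) or when libraries were scaled by size alone (adjusted p = 0.0195).

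SYMPK (chr19:46318668-46366548, minus strand), the scaffold of the cleavage module, rose in LNCaP and LNCaP95. In LNCaP the CTRL sh libraries had 70.7, 72.4 and 69.1 CPM, and the CPSF1 sh libraries were all higher, at 81.1 to 86.5 CPM. In LNCaP95 the CTRL sh libraries had 63.2, 51.7 and 58.7 CPM, those of CPSF1 sh1 75.1, 71.6 and 71.9 CPM, and those of CPSF1 sh2 84.1, 80.4 and 83.6 CPM. In 22Rv1 the CTRL sh libraries had 117.1, 110.1 and 109.5 CPM and lay inside the range of the CPSF1 sh libraries, 103.1 to 124.7 CPM. On the log2 scale the change was 0.24 (SE 0.040, adjusted p = 1.03e-04) in LNCaP, 0.42 (SE 0.076, adjusted p = 3.12e-04) in LNCaP95 and 0.00 (95% interval -0.12 to 0.12) in 22Rv1.

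The members' calls were set beside those of all genes tested. In LNCaP, 3 of 7 passed as a rise and 1 as a fall, beside rises in 31.1% and falls in 31.0% of 11096 genes. In LNCaP95, 5 passed as a rise and 1 as a fall, beside 33.2% and 33.7% of 11143 genes. In 22Rv1 the counts were 2 and 2, beside 12.7% and 14.3% of 11728 genes. CPSF1 itself accounts for the lower call in LNCaP and LNCaP95, and CPSF1 and CPSF4 for those in 22Rv1. The 6 CPSF1 sh and 3 CTRL sh libraries did not overlap for 4 members in LNCaP, 6 in LNCaP95 and 4 in 22Rv1, beside 55.6%, 60.0% and 28.2% of all genes. CPSF1, the hairpins' target, is among those members in each line. For the 7, CPSF1 included, the median log2 fold change came to 0.10 (LNCaP), 0.26 (LNCaP95) and 0.00 (22Rv1), while that of all genes was 0.00 in each line.

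**Figure D2:**
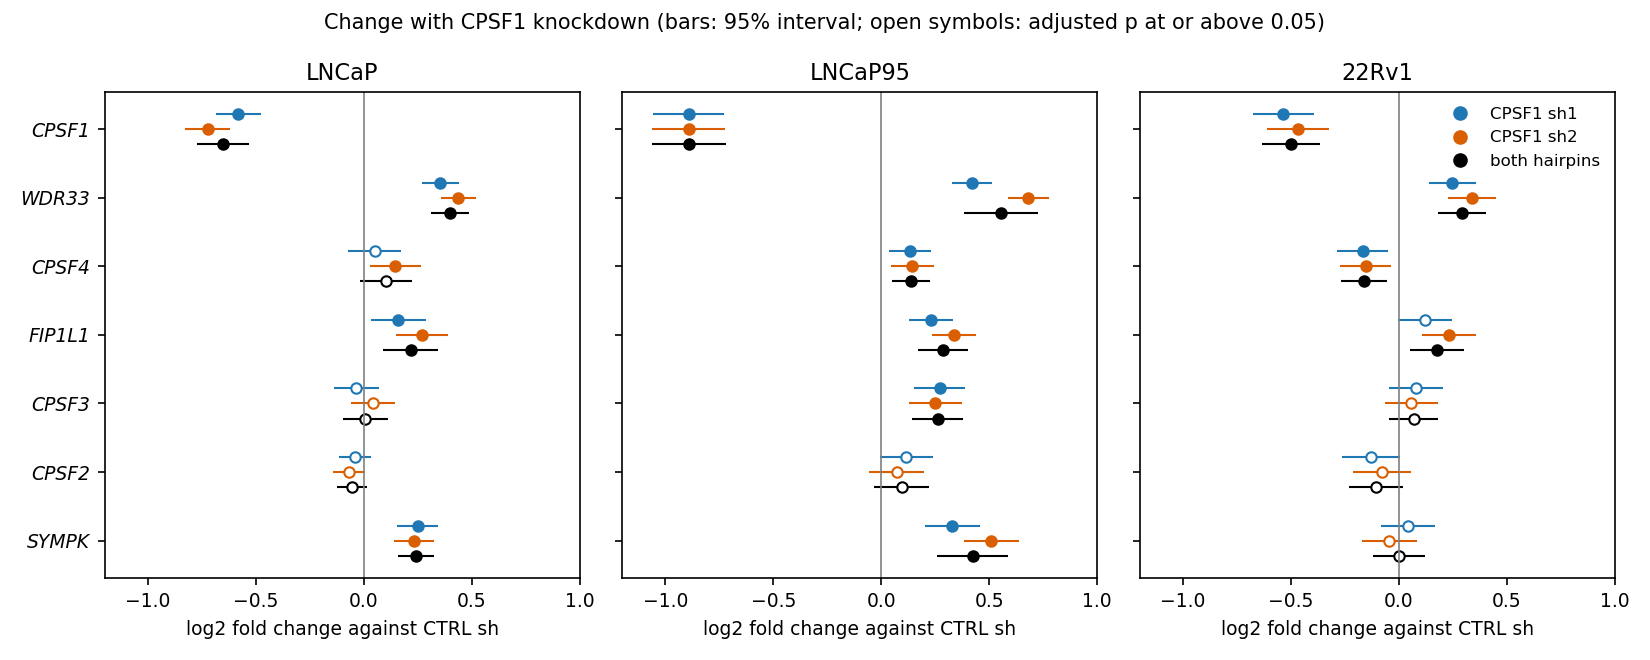
Log2 fold change (x axis) of the 7 genes with CPSF1 sh1, CPSF1 sh2 or both hairpins against CTRL sh in each line, with 95% intervals, and open symbols where the adjusted p was 0.05 or above. WDR33 lies to the right of 0 with each hairpin in each line, and SYMPK is centred on 0 in 22Rv1.

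To ask whether each hairpin gave these changes on its own, the hairpins were fitted as separate groups against the CTRL sh libraries that they share. With CPSF1 sh1, 4 members were called in LNCaP, 6 in LNCaP95 and 3 in 22Rv1 (background 62.6%, 66.4% and 19.9% in either direction). With CPSF1 sh2 the counts were 5, 6 and 4 (background 64.6%, 73.4% and 40.0%). Each of these counts includes CPSF1, the hairpins' target. WDR33 passed the test with each hairpin in each line, and its log2 fold change ranged from 0.25 with CPSF1 sh1 in 22Rv1 to 0.68 with CPSF1 sh2 in LNCaP95. FIP1L1 passed with each hairpin except CPSF1 sh1 in 22Rv1, where its change was 0.12 (95% interval -0.0042 to 0.25, adjusted p = 0.167). In LNCaP its CPSF1 sh1 call (0.16, adjusted p = 0.0289) was lost without CTRL sh replicate 2 or CPSF1 sh1 replicates 2 or 3. CPSF4 passed with CPSF1 sh2 in LNCaP (0.15, adjusted p = 0.0281), a call lost without CTRL sh replicates 1 or 2 or CPSF1 sh2 replicates 1 or 3. In LNCaP95 its CPSF1 sh1 call (0.13, adjusted p = 0.0187) was lost without CPSF1 sh1 replicate 1. In 22Rv1 CPSF4 passed narrowly with CPSF1 sh1 (-0.17, adjusted p = 0.0447) and CPSF1 sh2 (-0.15, adjusted p = 0.0375). The first call held only without CPSF1 sh1 replicate 3, and the second only without CPSF1 sh1 replicates 1 or 3, among the 9 fits that left out 1 library.

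The direct test of CPSF1 sh2 against CPSF1 sh1 called 2 members, both in LNCaP95, where 34.1% of genes were called. WDR33 was higher with CPSF1 sh2 by 0.26 on the log2 scale (SE 0.043, adjusted p = 1.17e-04). SYMPK was higher by 0.18 (SE 0.059, adjusted p = 0.0226), a call lost without CPSF1 sh1 replicates 2 or 3 or CPSF1 sh2 replicates 1 or 3. CPSF1 itself differed by 0.00 between the hairpins in LNCaP95 (95% interval -0.17 to 0.18). No member passed in LNCaP (14.8% of genes did) or in 22Rv1 (11.3%), and DESeq2 also called 0 in each. Unadjusted p-values from edgeR were under 0.05 for CPSF1 (0.0141) and WDR33 (0.0449) in LNCaP, and the lowest in 22Rv1 was 0.0794, for FIP1L1.

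Whether the knockdown effect differed between lines was tested as an interaction over all 27 libraries. Between 22Rv1 and LNCaP95, 6 of 7 members differed, where 61.6% of 10317 genes did. SYMPK had the largest difference, 0.43 lower in 22Rv1 on the log2 scale (interaction -0.43, SE 0.070, adjusted p = 5.20e-06), followed by CPSF1 (0.39, SE 0.095, adjusted p = 8.23e-04) and CPSF4 (-0.30, SE 0.060, adjusted p = 7.27e-05). Between 22Rv1 and LNCaP, 2 members differed, SYMPK (-0.23, adjusted p = 0.00674) and CPSF4 (-0.25, adjusted p = 0.00177), where 50.3% of genes did. Between LNCaP95 and LNCaP, 5 differed, where 59.7% of genes did, with CPSF3 (0.27, SE 0.071, adjusted p = 0.00139) and WDR33 (0.17, SE 0.052, adjusted p = 0.00510) keeping the call without any single library. FIP1L1 passed in none of these tests, and its differences were -0.11 for 22Rv1 minus LNCaP95 (95% interval -0.24 to 0.021), -0.02 for 22Rv1 minus LNCaP (-0.17 to 0.12) and 0.09 for LNCaP95 minus LNCaP (-0.051 to 0.23).

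The lines also differed before knockdown. With CTRL sh, 6 of 7 members differed between LNCaP95 and LNCaP, 6 between 22Rv1 and LNCaP and 7 between 22Rv1 and LNCaP95, where 80.5%, 82.7% and 84.5% of 10477 genes did. CPSF2 was lower in LNCaP95 than in LNCaP by 1.48 on the log2 scale (log2 difference -1.48, SE 0.050, adjusted p = 3.80e-18). FIP1L1 went the other way and was 1.96-fold higher in LNCaP95 (log2 difference 0.97, SE 0.056, adjusted p = 1.15e-13). CPSF4 was 2.31-fold higher in 22Rv1 than in LNCaP (log2 difference 1.21, SE 0.047, adjusted p = 3.78e-17). SYMPK was 1.96-fold higher in 22Rv1 than in LNCaP95 (log2 difference 0.97, SE 0.059, adjusted p = 1.56e-13). CPSF1 was lowest in LNCaP95 and highest in 22Rv1, with a log2 difference of 0.71 between them (SE 0.062, adjusted p = 1.50e-10). The pairs that missed the threshold were WDR33 between LNCaP95 and LNCaP (-0.07, 95% interval -0.17 to 0.024) and CPSF3 between 22Rv1 and LNCaP (-0.09, 95% interval -0.20 to 0.015).

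**Figure D3:**
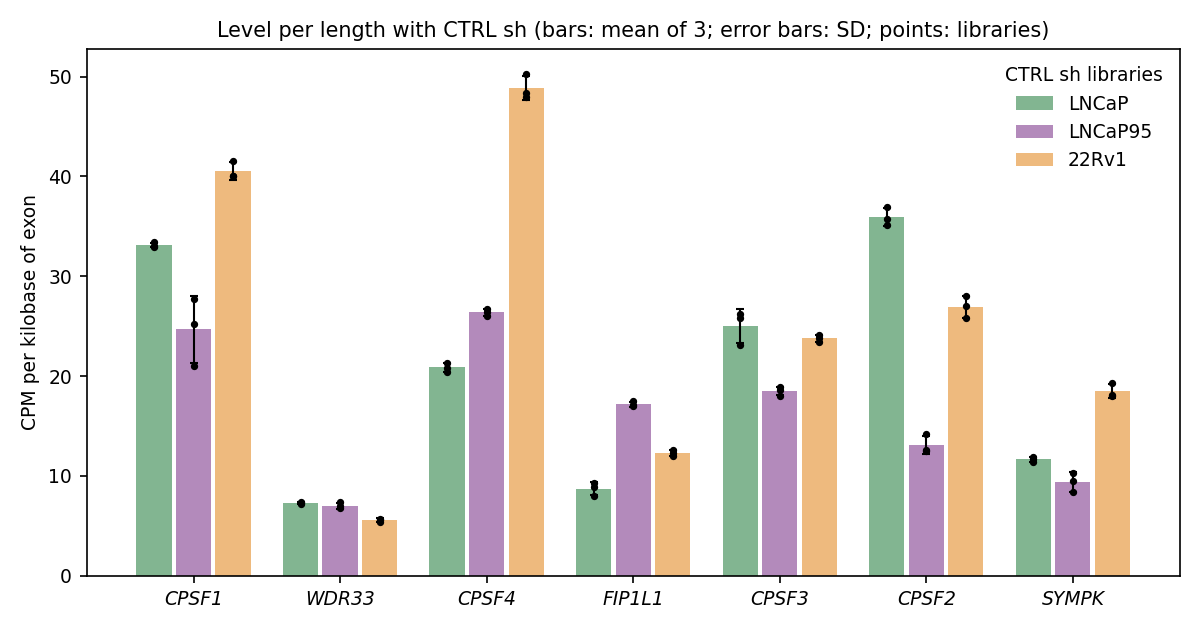
Level per length with CTRL sh, in CPM per kilobase of exon (TMM over 27 libraries, y axis from 0), as the mean of 3 libraries with SD and the single libraries as points. CPSF4 is highest in 22Rv1, CPSF2 is lowest in LNCaP95 and FIP1L1 is highest there.

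Levels of different genes were compared per kilobase of exon. In LNCaP with CTRL sh the order was CPSF2 (36.0 ± 0.93 CPM per kilobase, SD, n = 3), CPSF1 (33.1 ± 0.24), CPSF3 (25.0 ± 1.70), CPSF4 (20.9 ± 0.43), SYMPK (11.7 ± 0.27), FIP1L1 (8.70 ± 0.65) and WDR33 (7.28 ± 0.069). In LNCaP95 it was CPSF4 (26.4 ± 0.38), CPSF1 (24.7 ± 3.39), CPSF3 (18.5 ± 0.45), FIP1L1 (17.2 ± 0.25), CPSF2 (13.1 ± 0.93), SYMPK (9.39 ± 0.96) and WDR33 (7.02 ± 0.30). In 22Rv1 it was CPSF4 (48.8 ± 1.21), CPSF1 (40.6 ± 0.89), CPSF2 (26.9 ± 1.11), CPSF3 (23.8 ± 0.34), SYMPK (18.5 ± 0.72), FIP1L1 (12.3 ± 0.33) and WDR33 (5.56 ± 0.18). Neighbours in these orders did not overlap in their 3 libraries except CPSF4 and CPSF1 in LNCaP95. By this measure CPSF1 was second in each line and WDR33 last, at 4.94-fold, 3.76-fold and 8.79-fold below the leading member in LNCaP, LNCaP95 and 22Rv1. These levels rest on the summed exon length, which is 14580 bases for WDR33 and 5524 for CPSF2, while their MANE Select transcripts have 9490 and 13003 bases. It is 3681 for CPSF3, 2625 for CPSF4, 5311 for FIP1L1 and 6227 for SYMPK, against 2259, 1823, 3396 and 4077 bases. For CPSF1 the lengths are close, at 4663 and 4480 bases. The order therefore holds for the summed exon length, and was not computed with transcript lengths.

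The balance among the 7 transcripts shifted accordingly. CPSF1 held 23.2% ± 0.40 (SD, n = 3) of their summed level per length with CTRL sh in LNCaP, 16.3% ± 0.99 with CPSF1 sh1 and 14.6% ± 0.82 with CPSF1 sh2. Its share went from 21.2% ± 2.20 to 11.1% ± 0.92 and 10.7% ± 0.48 in LNCaP95, and from 23.0% ± 0.47 to 17.5% ± 1.70 and 18.0% ± 0.97 in 22Rv1. In LNCaP, where CPSF1 had been above CPSF3 and CPSF4, its share was below that of CPSF3 with either hairpin (17.9% and 18.8%) and below that of CPSF4 with CPSF1 sh2 (16.8%) but not with CPSF1 sh1 (15.9%). The WDR33 share went from 6.05% ± 0.47 to 7.82% ± 0.068 and 9.03% ± 0.27 in LNCaP95, the largest shift of that subunit. The summed level of the other 6 genes was 106 to 112 CPM per kilobase with CTRL sh and 112 to 117 with CPSF1 sh in LNCaP, 90.9 to 92.4 and 106 to 113 in LNCaP95, and 135 to 137 and 130 to 134 in 22Rv1. It was higher in LNCaP95 and lower in 22Rv1 without overlap, and the ranges overlapped in LNCaP. Shares and sums are given without a test, and each share depends on the other 6 genes. Like the levels, they rest on the summed exon length, and so do the ranks of CPSF1, CPSF3 and CPSF4.

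**Figure D4:**
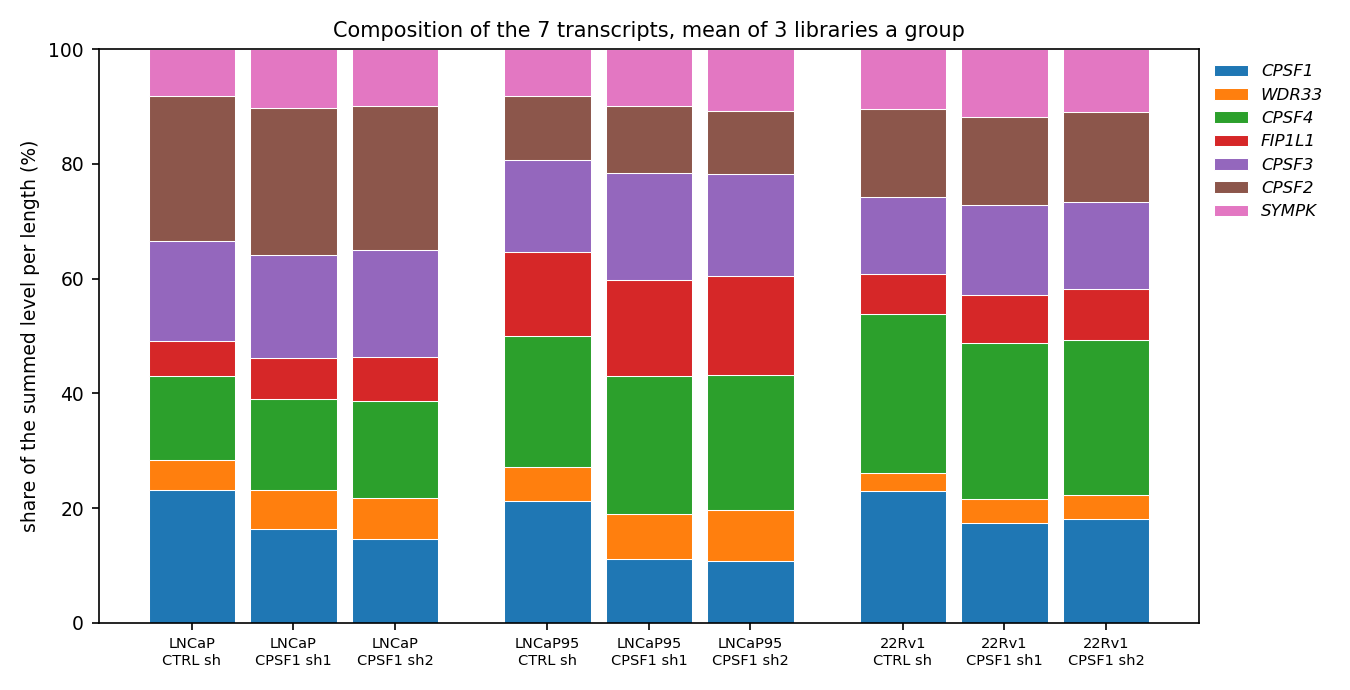
Share of each gene in the summed level per length of the 7 (y axis, percent, stacked from 0 to 100), as the mean of 3 libraries for each of the 9 groups. The CPSF1 segment at the bottom narrows in each line, most in LNCaP95, from 21.2% to 11.1% and 10.7%.

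The genes whose pattern over the 27 libraries came closest to that of CPSF1 were LTBR, ECD and CCNL2, with a root mean square difference of 0.131, 0.141 and 0.145 in log2 CPM relative to the CTRL sh mean of each line. LTBR had a log2 fold change of -0.72, -0.86 and -0.54 in LNCaP, LNCaP95 and 22Rv1. For the other members the closest gene was UPF2 for CPSF2 (0.057), TCTN3 for CPSF3 (0.0671), YBX1 for CPSF4 (0.0716), EIF2B5 for WDR33 (0.0603), MTDH for FIP1L1 (0.0615) and IRAK1 for SYMPK (0.0599). No member was among the 3 closest genes of another. Only 3 were kept for each member, out of 10317 genes above 2 CPM in all 27 libraries. Their absence therefore does not show whether the members vary together.

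The members work with other cleavage and polyadenylation factors, of which 16 were listed and all 16 tested. The test gave 8 rises and 2 falls in LNCaP (31.1% and 31.0% of all genes), 7 and 4 in LNCaP95 (33.2% and 33.7%) and 3 and 1 in 22Rv1 (12.7% and 14.3%), so that the counts in LNCaP95 and 22Rv1 lay near the share of all genes. CSTF3, a subunit of the cleavage stimulation factor, rose in all 3 lines, more than any of the 7 members. Its log2 fold change was 1.08, 1.36 and 0.67 (adjusted p = 2.51e-09, 5.72e-08 and 7.92e-06 in LNCaP, LNCaP95 and 22Rv1). NUDT21, the RNA-binding subunit of cleavage factor I, fell in all 3, with -0.49, -0.41 and -0.13, and the 22Rv1 call (adjusted p = 0.0431) was lost without any 1 of 6 libraries, CTRL sh replicates 1, 2 and 3, CPSF1 sh1 replicate 2 and CPSF1 sh2 replicates 1 and 2. PCF11, a subunit of cleavage factor II, rose in LNCaP (0.51, adjusted p = 8.34e-06) and in 22Rv1 (0.60, adjusted p = 2.78e-05), with -0.05 (95% interval -0.15 to 0.062) in LNCaP95. PAPOLA, the canonical poly(A) polymerase, rose in LNCaP (0.40, adjusted p = 8.70e-08) and LNCaP95 (0.47, adjusted p = 1.95e-06).

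**Figure D5:**
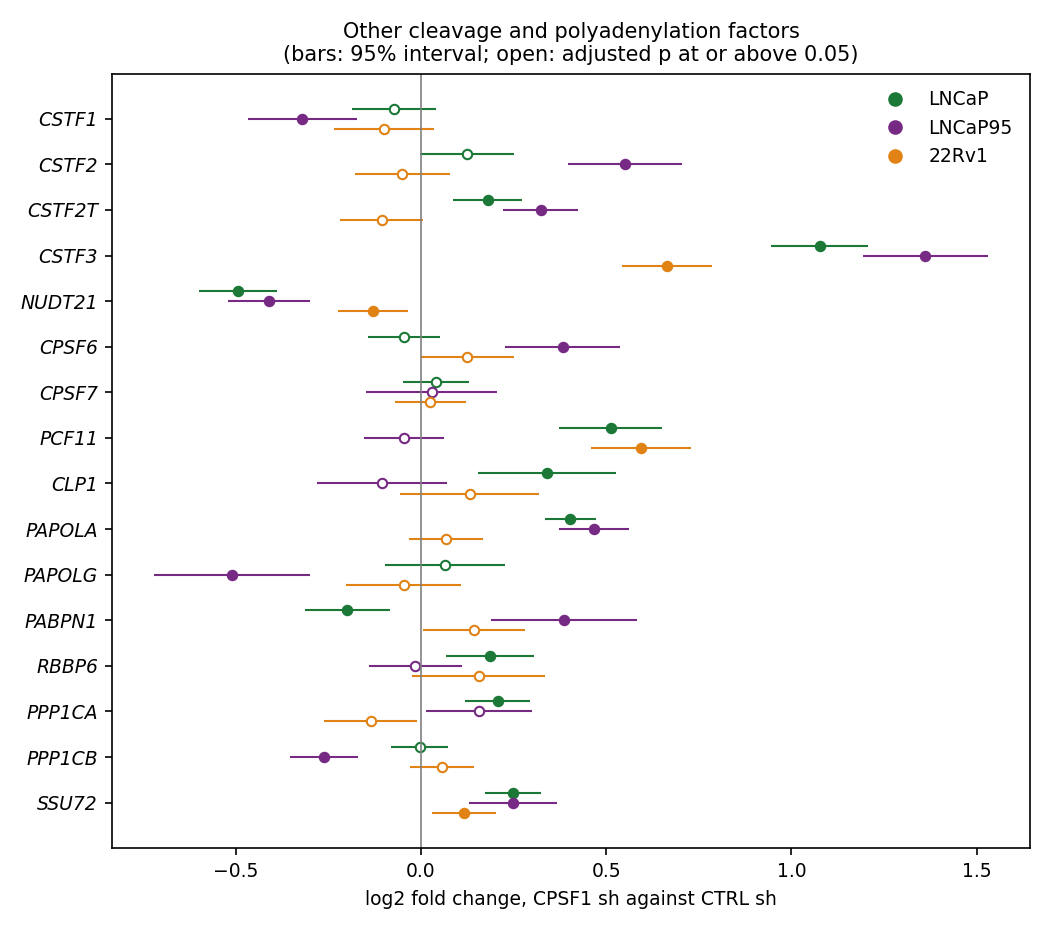
Log2 fold change with both CPSF1 hairpins against CTRL sh (x axis) of 16 other cleavage and polyadenylation factors, with 95% intervals, by line, and open symbols where the adjusted p was 0.05 or above. CSTF3 lies furthest right in each line, with an interval that overlaps that of PCF11 in 22Rv1, and NUDT21 lies left of 0 in each.

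The histone pre-mRNA partners of SYMPK, CPSF2 and CPSF3 were tested for 4 of the 5 listed. LSM11, a U7 snRNP protein, fell in all 3 lines, by 0.37, 0.48 and 0.57 on the log2 scale (adjusted p = 0.00212, 0.00241 and 1.46e-04). Of the 4, the test gave 1 rise and 1 fall in LNCaP, 2 rises and 2 falls in LNCaP95, and 0 rises and 3 falls in 22Rv1, beside the same shares of all genes, 31.1% and 31.0%, 33.2% and 33.7%, and 12.7% and 14.3%. Among 4 tested paralogs of CPSF subunits there were 3 rises and 0 falls in LNCaP (31.1% and 31.0% of all genes) and 2 of each in LNCaP95 (33.2% and 33.7%). With so few genes, these counts are a description. In 22Rv1 none of these 4 passed the test of both hairpins with edgeR or DESeq2, and none had an unadjusted p under 0.05 from edgeR. The lowest was 0.0957, for DDB1, a relative of CPSF1, which passed with CPSF1 sh2 alone (0.11, SE 0.034, adjusted p = 0.0164). With both hairpins DDB1 rose in LNCaP (0.38, adjusted p = 9.57e-08) and fell in LNCaP95 (-0.12, adjusted p = 0.00991). The LNCaP95 call was lost without CTRL sh replicate 3 (adjusted p = 0.0553).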

How the data were processed

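The 27 libraries were poly(A)-selected, stranded and paired-end, and the deposited table holds raw counts with exon lengths. Alignment by the authors used HISAT2 2.1.0 on GRCh37, and featureCounts assigned fragments to Ensembl 87 exons in reverse-stranded mode, for which the submitters' processing notes name Subread 2.0.3 and the paper another version. Counts are per gene symbol, with no normalization. Libraries held 8515624 to 15904518 counts (median 11058723), and depth and the spread between replicates (biological coefficient of variation 4.95% in LNCaP, 7.09% in LNCaP95 and 6.08% in 22Rv1) set the precision. No pair of replicates agreed within sampling noise (chi-square per degree of freedom 1.38 to 6.98).

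Groups came from the sample labels. In R 4.3.3 with edgeR 4.0.16, genes had to exceed 2 CPM in every library of the fit, TMM set the scaling, and the test was a quasi-likelihood F-test of 3 CTRL sh against 6 CPSF1 sh libraries per line, as in the study's methods, run in its legacy form. Benjamini-Hochberg adjustment ran over all genes tested, with a threshold of 0.05, and 95% intervals use the moderated degrees of freedom. Hairpins were fitted as 3 groups per line, lines compared over 9 CTRL sh libraries, and differences of effect over 27 libraries. The fits were tested on simulated data. Levels per length are TMM-scaled CPM over 27 libraries divided by the deposited exon length.

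Alternatives were edgeR 4 quasi-likelihood, DESeq2 1.42.0, RLE factors, library size alone, filterByExpr, no filter, hairpins apart or alone, a fit of all 27 libraries, a replicate block, TPM, and each library left out. RLE and library size for the genes closest to CPSF1 were added after seeing the data. The genes named are the 7 members, the listed factors, the 3 genes closest to CPSF1 and the nearest genes on the same strand, while the closest genes of the other members, PDGFRA and PTCD1 were named after their values were seen. The members and lists were chosen with earlier results of these data known. Of the endothelial markers VWF alone was summed. Genome sequence and transcript ends came from GRCh37 and GENCODE 44 lifted to it. Sequences of the hairpins and of chromosome 8, some marker genes and 1 transcript end are not reported here.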

Additional observations from a re-analysis of the deposited data

Results flagged for a closer look

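These results were singled out because the knockdown effect of a member differed between 2 lines in the interaction test, given here as the log2 difference of effects, first line minus second. Between LNCaP95 and LNCaP the differences were -0.22 for CPSF1 (adjusted p = 0.0476), 0.17 for CPSF2 (adjusted p = 0.0408), 0.27 for CPSF3, 0.17 for WDR33 and 0.20 for SYMPK (adjusted p = 0.0216). Of these, the CPSF1 call was lost in 12 of 18 fits that left out 1 library, with an adjusted p of up to 0.262 (without LNCaP95 CTRL sh replicate 1). It held without LNCaP CPSF1 sh1 replicates 2 or 3, LNCaP CPSF1 sh2 replicate 3, LNCaP95 CTRL sh replicate 2, LNCaP95 CPSF1 sh1 replicate 1 or LNCaP95 CPSF1 sh2 replicate 2. The CPSF2 call was lost in 9 of 18 (up to 0.145), namely without LNCaP CTRL sh replicates 1 or 2, LNCaP CPSF1 sh1 replicates 1 or 3, LNCaP CPSF1 sh2 replicate 1, LNCaP95 CTRL sh replicates 1 or 3, LNCaP95 CPSF1 sh1 replicate 2 or LNCaP95 CPSF1 sh2 replicate 3, and the SYMPK call without LNCaP CTRL sh replicate 2 or LNCaP95 CTRL sh replicate 2 (up to 0.149).

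Between 22Rv1 and LNCaP the differences were -0.25 for CPSF4 and -0.23 for SYMPK, and neither call was lost without any 1 library. Between 22Rv1 and LNCaP95 they were 0.39 for CPSF1, -0.20 for CPSF2, -0.20 for CPSF3, -0.30 for CPSF4, -0.26 for WDR33 and -0.43 for SYMPK. The CPSF2 call there (adjusted p = 0.0151) was lost without LNCaP95 CTRL sh replicates 1 or 3 or 22Rv1 CTRL sh replicate 3 (up to 0.0624), and the other 5 were kept. CPSF4 is the member with called effects of opposite sign in 2 lines, 0.14 in LNCaP95 and -0.16 in 22Rv1. The cause of these differences was not tested.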

How the results depend on the processing

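Among counts of members called, the number that differed in effect between LNCaP95 and LNCaP was 3 with filterByExpr and 3 without a filter, against 5 as reported. With CPSF1 sh1 libraries alone, 2 members were called in 22Rv1 against 4. CPSF7 in LNCaP95 changed sign with CPSF1 sh1 alone (-0.12, against 0.03 with both hairpins). The cause of these shifts was not tested. The share of all genes called was not computed under these settings or without 1 library, so such counts only describe the members. Leaving out 1 library in turn gave 2 to 5 members for the difference between LNCaP95 and LNCaP, 0 to 1 for CPSF1 sh2 against CPSF1 sh1 in LNCaP, 1 to 2 for the same in LNCaP95, and 2 to 4 for the knockdown in 22Rv1. The other counts stayed within 1.5 times, and the order of levels per length was kept. The FIP1L1 call in 22Rv1 was also lost without a filter (adjusted p = 0.0541).

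Same-numbered libraries correlated between -0.246 and 0.294 in their deviations, with 7 of 27 above 0.1, so the numbers were not taken as pairs. With the replicate number as a block, 4, 6 and 3 members were called in LNCaP, LNCaP95 and 22Rv1, and 1 for CPSF1 sh2 against CPSF1 sh1 in LNCaP, where 0 were without the block. The share of all genes called with the block was not computed either. The block could not be fitted for the lines compared with CTRL sh. The 3 genes closest to CPSF1 were the same with RLE factors and with library size alone, alternatives chosen after seeing the data. Members had 419 to 2547 raw counts per library, and the printed intervals give the precision reached with 3 libraries a group.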
